A study of Mus musculus with 56 samples.

Results

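Basal keratin levels divided the tumors compared here. The comparison set 14 mouse mammary tumors with the highest levels of the basal keratin genes Krt5, Krt14 and Krt17 (keratin-high) against 14 with the lowest (keratin-low), 28 of the 56 tumors in the series. All 28 were rich in epithelial transcripts. The members were chosen from measured values: an epithelial score, the mean log2 signal of Cdh1, Epcam, Cldn3 and Cldn7, was computed for each array, and the lowest 8 of 32 arrays from wild-type (WT) hosts and the lowest 6 of 24 from Tgfb1 heterozygous (Het) hosts were left out. The remaining 24 WT and 18 Het arrays were ranked within host genotype by a keratin score, the mean log2 signal of the 3 keratins. The top 8 WT and 6 Het arrays became the keratin-high group and the bottom 8 WT and 6 Het arrays the keratin-low group. The 7 score genes are therefore described without a test, and the calls for all other genes say which genes followed groups that were made from keratin values.

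The tumors arose from mammary fragments lacking p53, which had not been irradiated and which were transplanted into inguinal fat pads of female BALB/c mice. The host gland had been cleared of its own epithelium at 3 weeks of age, and the host was irradiated or sham-irradiated 3 days before transplantation. WT hosts gave 9 sham and 23 irradiated tumors and Het hosts gave 6 sham and 18 irradiated tumors, each with 1 array. The transplanted epithelium lacked p53 in every group, the Tgfb1 genotype is that of the host, and the fat pad cells of the host remained in place. WT keratin-high tumors came from irradiated hosts in 6 of 8 cases, WT keratin-low tumors in 5 of 8 (Fisher's exact test, two-sided, p = 1.0). In Het hosts the counts were 3 of 6 and 5 of 6 (Fisher's exact test, p = 0.545).

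The mammary duct has an inner luminal layer, which makes milk in lactation, and an outer basal layer of contractile myoepithelial cells that rest on the basement membrane. Basal cells carry the keratin pair Krt5 and Krt14, anchor themselves through hemidesmosomes that bind laminin, and are governed by transcription factors such as Trp63 and Snai2. Krt17 is a keratin of basal and of stressed epithelium. Tumors that keep or gain basal keratins are called basal-like by pathologists. Luminal tumors carry simple keratins such as Krt8 and Krt18. In bulk RNA of a tumor, fewer cells of a type and less RNA per cell cannot be told apart.

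The keratin score of the WT keratin-high arrays had a lowest value of 8.42, a median of 9.04 and a highest of 12.32 (log2), and that of the WT keratin-low arrays 5.79, 6.71 and 7.36. In Het hosts the values were 8.56, 9.20 and 10.87 in keratin-high arrays and 4.83, 6.70 and 7.32 in keratin-low arrays. These gaps were set by the ranking. Just outside the groups lay WT arrays at 8.29 and 7.46 and Het arrays at 8.38 and 7.58. Mean epithelial scores were alike, at 12.54 ± 0.20 in keratin-high and 12.51 ± 0.15 in keratin-low WT arrays (SD, n = 8 each) and 12.32 ± 0.17 and 12.29 ± 0.18 in Het arrays (SD, n = 6 each). The epithelial limit fell between 12.17 and 12.20 in WT hosts, and both arrays next to it stood at 12.03 in Het hosts.

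**Figure D1:**
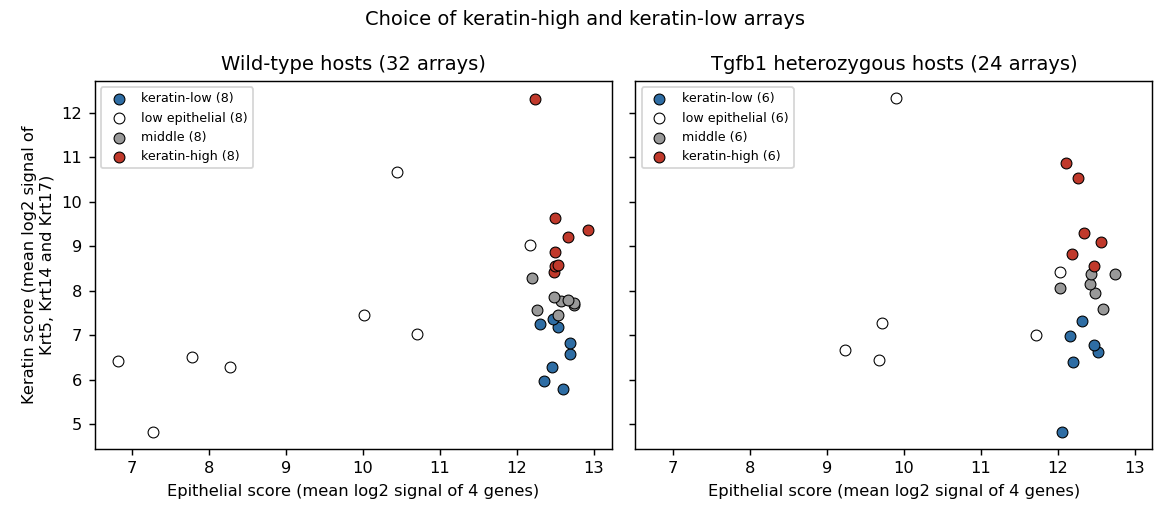
Keratin score against epithelial score (both mean log2 signal) for each array, with WT hosts left and Het hosts right; colours mark keratin-high, middle, keratin-low and the arrays left out for a low epithelial score. The highest keratin score of each panel stands apart: 12.32 for a WT keratin-high array and 12.34 for a Het array that the epithelial score left out.

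The 3 keratins did not move in step. Krt14 ran from 10.29 to 12.82 in WT keratin-high arrays and from 5.75 to 9.75 in WT keratin-low arrays, and from 10.26 to 12.10 and from 4.46 to 8.40 in the Het groups. Krt17 ran from 7.28 to 12.06 and from 5.25 to 6.98 in WT hosts, and from 8.13 to 10.52 and from 4.28 to 7.30 in Het hosts. Neither gene overlapped between the groups of a host genotype. Krt5 overlapped, with 6.60 to 12.07 in WT keratin-high and 5.78 to 7.06 in WT keratin-low arrays, and 6.47 to 10.97 and 5.74 to 6.82 in Het arrays. Only 4 of the 14 keratin-high arrays had a Krt5 signal above 9 (1 WT, 3 Het), and the other 10 reached at most 8.19. The difference of means was 1.52 (WT) and 2.40 (Het) for Krt5, 3.59 in both hosts for Krt14, and 3.02 and 3.14 for Krt17. The Krt14 probe set belongs to a kind that can cross-hybridise with related sequences; a second Krt14 probe set differed by 3.61 and 3.71, and the third, dim one by 0.86 and 0.98.

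A pair of arrays stood apart within their groups. Irradiated WT replicate 12 was far above the other keratin-high WT arrays in the keratin score (12.32 against at most 9.63), and sham Het replicate 52 was far below the other keratin-low Het arrays (4.83 against at least 6.41). The 18S control signal, a sign of RNA or labelling quality, was below 11 in 3 of the 28 arrays, 2 keratin-high and 1 keratin-low, all from sham WT hosts. Its mean was 12.15 ± 1.62 in keratin-high and 12.54 ± 1.35 in keratin-low WT arrays (SD, n = 8 each; exact permutation test, two-sided, p = 0.722), and 12.38 ± 0.51 and 12.36 ± 0.53 in Het arrays (SD, n = 6 each; exact permutation test, p = 0.922). The difference between 3' and 5' control probe sets was 0.20 and 0.18 in WT arrays (exact permutation test, p = 0.399) and 0.27 and 0.25 in Het arrays (exact permutation test, p = 0.753).

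Against this grouping, limma with host genotype as a block called 956 of 12501 genes (7.65%) at a Benjamini-Hochberg adjusted p under 0.05, 536 higher (4.29%) and 420 lower (3.36%) in keratin-high tumors. The median difference over all genes tested was 0.01 (log2). Among the called genes, 153 were over 2-fold higher and 68 over 2-fold lower. Without irradiated WT replicate 12 and sham Het replicate 52 together, 688 genes were called, 379 higher and 309 lower. When all 56 arrays were ranked by keratin score with none left out beforehand, top and bottom groups of the same sizes gave 51 called genes. Without the 4 keratin-high arrays with Krt5 above 9, 424 genes were called, and of the 79 called genes followed by name 43 kept their call. Leaving out single arrays gave 621 to 1096 calls, and the count fell by more than 1.5 times without irradiated Het replicate 56 (621) or sham WT replicate 8 (630).

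Genes of the hemidesmosome and of the other basal keratins were mostly higher in keratin-high tumors. Of 13 measured genes of this list, 7 rose and 1 fell, with a median difference of 0.90. Over all genes tested 4.29% rose and 3.36% fell, which is the background for this and the later list counts. Lama3, a laminin chain that hemidesmosomes bind, had a lowest, median and highest signal of 6.95, 8.85 and 11.38 in WT keratin-high arrays and 5.0, 6.41 and 7.62 in WT keratin-low arrays. In Het hosts the values were 8.46, 8.74 and 12.09 against 4.48, 6.14 and 8.01. The Het groups did not overlap and the WT groups overlapped. Lama3 rose by 2.68 ± 0.48 (log2, SE), or 6.41-fold (limma adjusted p = 0.00248), and all 14 keratin-high arrays lay above the keratin-low median of their host genotype. A second, dimmer Lama3 probe set differed by 0.00.

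Col17a1, the transmembrane collagen of hemidesmosomes, had values of 4.27, 5.23 and 10.07 in WT keratin-high arrays and 3.63, 4.23 and 4.96 in WT keratin-low arrays. The Het values were 4.83, 7.95 and 10.77 against 3.92, 4.28 and 5.16. The highest signals belonged to the 4 arrays with Krt5 above 9, at 9.52 to 10.77, while the other 10 keratin-high arrays reached at most 6.39. Col17a1 rose by 2.27 ± 0.57 (limma adjusted p = 0.0178), by 1.90 without the pair of arrays that stood apart (limma adjusted p = 0.0339), and by 0.93 without those 4 arrays (limma adjusted p = 0.0144). All its keratin-low signals lay under the 5.83 that the filter on dim probe sets required. In the groups compared, only keratin-high arrays exceeded that limit. The entry of Col17a1 into the test therefore leaned on the keratin-high group, and its call adds no separate support to the list count.

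The keratins Krt6a and Krt16, which are induced in activated epidermis, rose by 2.22 ± 0.56 (limma adjusted p = 0.0177) and 1.21 ± 0.24 (limma adjusted p = 0.00406). Krt6a in Het arrays was 8.48 to 10.86 against 4.03 to 8.25 and did not overlap; in WT arrays it was 5.42 to 10.10 against 4.52 to 9.13. Without the 4 arrays with Krt5 above 9 its difference was 1.75 (limma adjusted p = 0.107). Krt16 stayed dim, with medians of 5.09 and 4.39 in WT and 6.18 and 4.24 in Het arrays. Its keratin-low signals reached at most 4.84 (WT) and 4.74 (Het), under the 5.83 that the filter on dim probe sets required. In the groups compared, only keratin-high arrays exceeded that limit. The entry of Krt16 into the test therefore leaned on the keratin-high group, and its call adds no separate support to the list count. Krt6a and Krt16 have near-identical relatives, so the share of Krt6b signal in Krt6a, or of Krt14 and Krt17 signal in Krt16, is uncertain. Krt6b differed by 0.90 (limma adjusted p = 0.302) and Krt15 by 0.90 (limma adjusted p = 0.216).

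Lamb3, the partner chain of Lama3, rose by 1.30 ± 0.36 (limma adjusted p = 0.0294), and by 1.23 without irradiated Het replicate 56, where the call was lost (limma adjusted p = 0.0527). The laminin receptor Itga3 rose by 0.80 ± 0.24 and the hemidesmosome integrin Itgb4 by 0.76 ± 0.23 (limma adjusted p = 0.04 and 0.0443). Its partner Itga6 differed by -0.11 ± 0.12 (limma adjusted p = 0.621). Dst, which encodes a plaque protein, was the 1 member that fell, by 0.87 ± 0.27 (limma adjusted p = 0.0475). Other Dst probe sets did not all point the same way: one fell by 0.88 (limma adjusted p over all probe sets = 0.0379), and the rest differed by 0.64 and -0.02 (limma adjusted p over all probe sets = 0.246 and 0.977). The calls of Itga3, Itgb4 and Dst were lost in 14, 16 and 20 of the 28 fits that left out a single array.

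The promoters below show the sequence just before the start of a keratin that made the ranking (Krt5), of a hemidesmosome gene that rose (Col17a1) and of a secretory regulator that fell (Bhlha15). They are from RefSeq, build GRCm38.p6, 250 bases before the start, 5′ to 3′ on the strand of the gene. Krt5 lies at chr15:101712906-101713155 on the minus strand, Col17a1 at chr19:47692043-47692292 on the minus strand and Bhlha15 at chr5:144190036-144190285 on the plus strand. Capitals mark a match to CAGGTG, the E-box pattern of Snail-family factors such as Snai2, on either strand. CAGGTG was chosen after these windows had been seen, in place of an NF-kappaB pattern. TGANTCA, the AP-1 pattern, was searched as well.
Krt5: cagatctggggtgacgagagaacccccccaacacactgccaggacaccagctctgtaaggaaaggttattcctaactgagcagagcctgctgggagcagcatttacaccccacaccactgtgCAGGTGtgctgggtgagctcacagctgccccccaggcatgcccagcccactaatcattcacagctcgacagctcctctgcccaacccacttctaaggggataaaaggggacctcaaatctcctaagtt
Col17a1: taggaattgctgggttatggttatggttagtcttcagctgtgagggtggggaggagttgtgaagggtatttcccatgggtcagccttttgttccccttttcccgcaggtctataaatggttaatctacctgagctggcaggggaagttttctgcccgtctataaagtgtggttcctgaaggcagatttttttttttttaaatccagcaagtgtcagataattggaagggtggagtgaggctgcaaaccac
Bhlha15: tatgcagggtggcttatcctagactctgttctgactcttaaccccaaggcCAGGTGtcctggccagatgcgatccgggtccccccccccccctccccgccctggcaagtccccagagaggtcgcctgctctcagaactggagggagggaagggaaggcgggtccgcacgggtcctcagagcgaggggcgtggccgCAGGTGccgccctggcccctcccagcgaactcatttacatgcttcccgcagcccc
Krt5 held 1 match to CAGGTG and Bhlha15 2, Col17a1 held none, and TGANTCA was in none of these windows. Over the 10050 tested genes with such a window, CAGGTG stood in 15.4%, against 17.5% of 406 higher genes and 14.2% of 332 lower genes. TGANTCA stood in 4.47% of all windows, 6.9% of those of higher genes and 4.52% of those of lower genes. A match describes the letters in the window and was not tested as a binding site.

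Regulators of the basal layer followed in part. Of 14 measured, 4 rose and none fell, and the median difference was 0.97. Id4, an inhibitor of DNA-binding factors that marks basal mammary cells, had values of 8.68, 9.999 and 12.05 in WT keratin-high and 4.80, 6.93 and 10.79 in WT keratin-low arrays, and 9.19, 11.01 and 12.64 against 7.94, 9.05 and 12.50 in Het arrays. The groups overlapped in both hosts, and sham Het replicate 52, the array lowest in keratin, held the highest Id4 signal of the keratin-low tumors. Id4 rose by 2.25 ± 0.56 (limma adjusted p = 0.017), and by 2.53 without that array (limma adjusted p = 0.00605). Without the 4 arrays of Krt5 above 9 the difference was 1.89 (limma adjusted p = 0.0958).

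Snai2, a repressor that maintains basal identity, had values of 6.65, 7.96 and 11.68 in WT keratin-high and 6.27, 7.05 and 7.51 in WT keratin-low arrays. In Het arrays these were 6.87, 9.18 and 11.61 against 6.94, 7.25 and 7.60. Its 4 highest signals, 10.45 to 11.68, were again those of the arrays with Krt5 above 9. Snai2 rose by 1.46 ± 0.44 (limma adjusted p = 0.0434), a call lost in 17 of 28 leave-one-out fits, among them that without irradiated WT replicate 12 (1.20, limma adjusted p = 0.0589). Without the 4 arrays of Krt5 above 9 the Snai2 difference was 0.48 (limma adjusted p = 0.17). Lgr6, a receptor for R-spondins, rose by 1.86 ± 0.44 (limma adjusted p = 0.0121), with all 14 keratin-high arrays above the keratin-low median. A second Lgr6 probe set differed by 1.04 and did not pass (limma adjusted p over all probe sets = 0.0686). Procr, the protein C receptor, rose by 0.77 ± 0.22 (limma adjusted p = 0.0313), a call lost in 4 leave-one-out fits. With the mean of the stromal matrix genes as a covariate Procr differed by 0.44 (limma adjusted p = 0.275).

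Trp63, the p63 factor of basal epithelia, did not pass the test. Its values were 5.01, 6.31 and 10.03 in WT keratin-high and 4.82, 6.23 and 7.29 in WT keratin-low arrays, and 5.68, 8.01 and 10.01 against 4.0, 6.58 and 7.68 in Het arrays. The WT medians were close, and only 9 of 14 keratin-high arrays lay above the keratin-low median; in the 4 arrays with Krt5 above 9 the signal was 8.77 to 10.03. The difference was 1.29 ± 0.52 (limma adjusted p = 0.114). Sox10, a factor of neural crest and mammary progenitors, differed by -0.45 on the probe set used (limma adjusted p = 0.0765), while its other probe sets fell by 0.56 and 0.60 (limma adjusted p over all probe sets = 0.0231 and 0.0228). Bcl11b differed by 0.13 (limma adjusted p = 0.86).

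Of 14 contractile genes of myoepithelium, 1 rose and none fell, about the share called over all genes tested (7.65%), with a median of 0.56. The gene that rose was Tpm2, a tropomyosin, with values of 8.46, 9.72 and 11.90 against 7.92, 8.75 and 9.60 in WT arrays and 8.98, 11.03 and 12.50 against 7.93, 8.86 and 9.38 in Het arrays. The groups overlapped in both hosts. Tpm2 rose by 1.70 ± 0.36 (limma adjusted p = 0.00706). The smooth muscle actin Acta2 differed by 0.82, calponin Cnn1 by 1.13 and the myosin Myh11 by 1.40, and none of these passed (limma adjusted p = 0.0894, 0.0679 and 0.121).

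**Figure D2:**
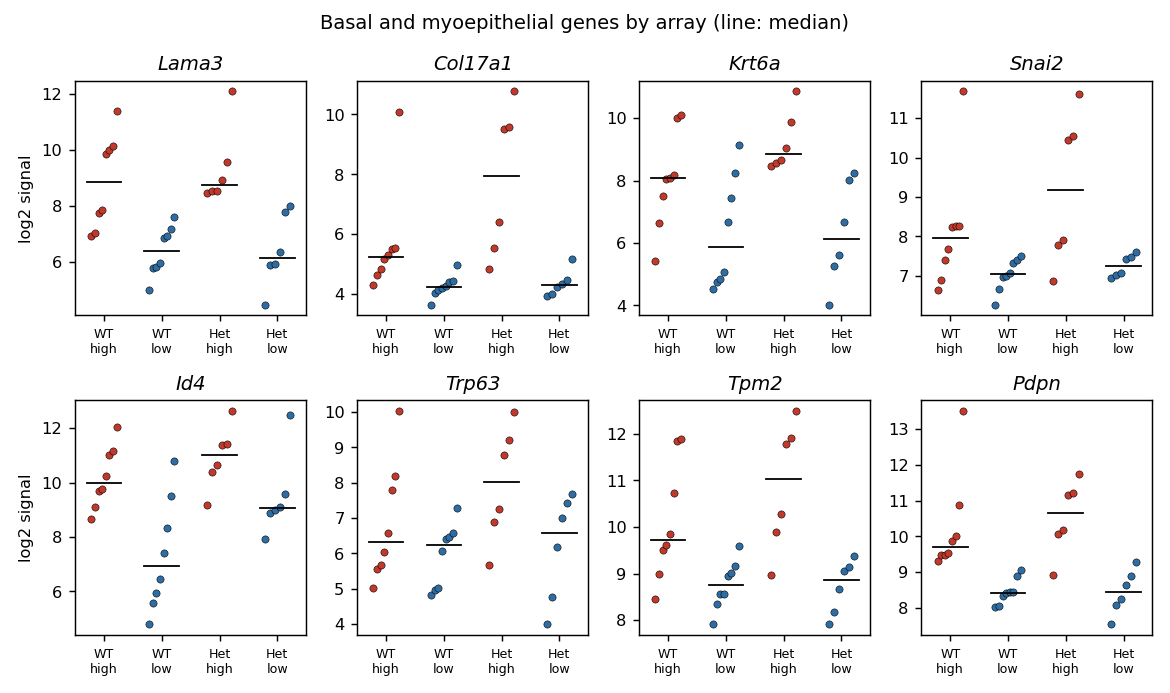
Log2 signal of 8 basal and myoepithelial genes in each of the 28 arrays, by host genotype and keratin group, with a line at the group median. Col17a1 and Snai2 are high in 4 keratin-high arrays (9.52 or above and 10.45 or above). Pdpn is highest in the same 4 arrays (11.15 or above), with 9.30 the lowest WT and 8.91 the lowest Het keratin-high value.

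Cell contacts of stratified epithelium formed the next group. Of 8 desmosome genes 3 rose and none fell, with a median of 0.31: the plakophilins Pkp1 (1.55 ± 0.38) and Pkp3 (0.40 ± 0.10) and the desmosome membrane protein Perp (0.78 ± 0.20), with limma adjusted p = 0.0152, 0.0141 and 0.0181. Perp differed by 0.48 once the 4 arrays of Krt5 above 9 were left out (limma adjusted p = 0.137). A second Pkp3 probe set differed by 0.19 (limma adjusted p over all probe sets = 0.331). Of 24 keratinization genes 10 passed the filter on dim probe sets, and 3 of these rose: Sfn, or stratifin (0.84 ± 0.19), periplakin Ppl (0.69 ± 0.19) and the protease inhibitor Cst6 (1.26 ± 0.37), with limma adjusted p = 0.00922, 0.0294 and 0.0366. The median of the 10 was 0.59. The calls of Ppl and Cst6 were lost in 2 and 7 leave-one-out fits. Krt10, a keratin of maturing epidermis, differed by -0.29 (limma adjusted p = 0.364), and the cornified envelope gene Sprr1a by 0.32 (limma adjusted p = 0.697).

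Over the simple keratin, luminal regulator, hormone target, milk and luminal progenitor lists, 5 of 50 genes were called (over all genes tested, 7.65% were). None of 5 simple keratins passed; Krt8 differed by 0.15 ± 0.13 and Krt18 by 0.07 ± 0.13 (limma adjusted p = 0.505 and 0.789), and Krt19 by 1.08 ± 0.36 (limma adjusted p = 0.0578). Of 15 luminal regulators 1 rose and 1 fell, with a median of 0.23. Xbp1, a factor of secretory cells, had values of 12.35, 12.90 and 13.29 against 13.08, 13.46 and 13.67 in WT arrays and 12.14, 12.78 and 13.07 against 12.75, 13.11 and 13.76 in Het arrays. It fell by 0.48 ± 0.11 (limma adjusted p = 0.0114), and every keratin-high array lay below the keratin-low median. Myb rose by 0.75 ± 0.23 (limma adjusted p = 0.0457), a call lost in 17 leave-one-out fits and without the arrays of Krt5 above 9 (0.49, limma adjusted p = 0.219).

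The luminal factor Foxa1 was high in keratin-high WT arrays, with 6.95, 7.89 and 8.70 against 5.66, 6.20 and 7.46. In Het arrays it was 5.23, 7.03 and 10.50 against 3.94, 5.88 and 8.55. The difference of 1.44 ± 0.50 did not pass (limma adjusted p = 0.0717), although 13 of 14 keratin-high arrays lay above the keratin-low median. The estrogen receptor gene Esr1 differed by 0.43 ± 0.36 (limma adjusted p = 0.47), Gata3 by -0.48 and Elf5 by -0.49 (limma adjusted p = 0.292 and 0.286). Of 5 hormone targets, Greb1 rose by 0.93 ± 0.28 and Socs2, a feedback inhibitor of cytokine signalling, fell by 1.49 ± 0.41 (limma adjusted p = 0.0392 and 0.0285), with a list median of 0.07. The Greb1 call was lost in 11 leave-one-out fits. The Socs2 difference was -1.15 without the top keratin array of each host genotype (limma adjusted p = 0.066). It was -1.03 once the 4 arrays of Krt5 above 9 were left out (limma adjusted p = 0.148).

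Of 16 milk genes 1 fell and none rose, and the median was -0.20. Folr1, a folate receptor, had values of 6.91, 7.93 and 10.36 against 8.97, 10.52 and 12.27 in WT arrays and 6.70, 7.47 and 8.87 against 8.59, 8.84 and 10.76 in Het arrays, with an overlap in both hosts. It fell by 2.01 ± 0.40 (limma adjusted p = 0.00456). Lalba, the alpha-lactalbumin gene, ranged from 6.00 to 11.65 against 8.81 to 12.68 in WT arrays and from 4.75 to 12.55 against 6.89 to 13.68 in Het arrays. Its difference of -2.62 ± 0.84 did not pass (limma adjusted p = 0.0532). The caseins Csn2 and Csn3 differed by 0.15 and -1.10, and the whey gene Wap by -0.20 (limma adjusted p = 0.901, 0.119 and 0.885).

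None of 9 luminal progenitor genes passed (median -0.23; Kit -0.23, limma adjusted p = 0.525). Among 18 junction genes outside the score, Marveld3 of tight junctions and the epithelial splicing regulator Esrp2 fell, by 0.76 ± 0.17 and 0.55 ± 0.15 (limma adjusted p = 0.00997 and 0.0278), with a list median of -0.08. With no array dropped by the epithelial score, these differences turned to 1.07 and 1.03 (limma adjusted p = 0.596 and 0.504). They were -0.54 and -0.31 when the 4 arrays of Krt5 above 9 were left out, and neither passed (limma adjusted p = 0.0631 and 0.141).

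**Figure D3:**
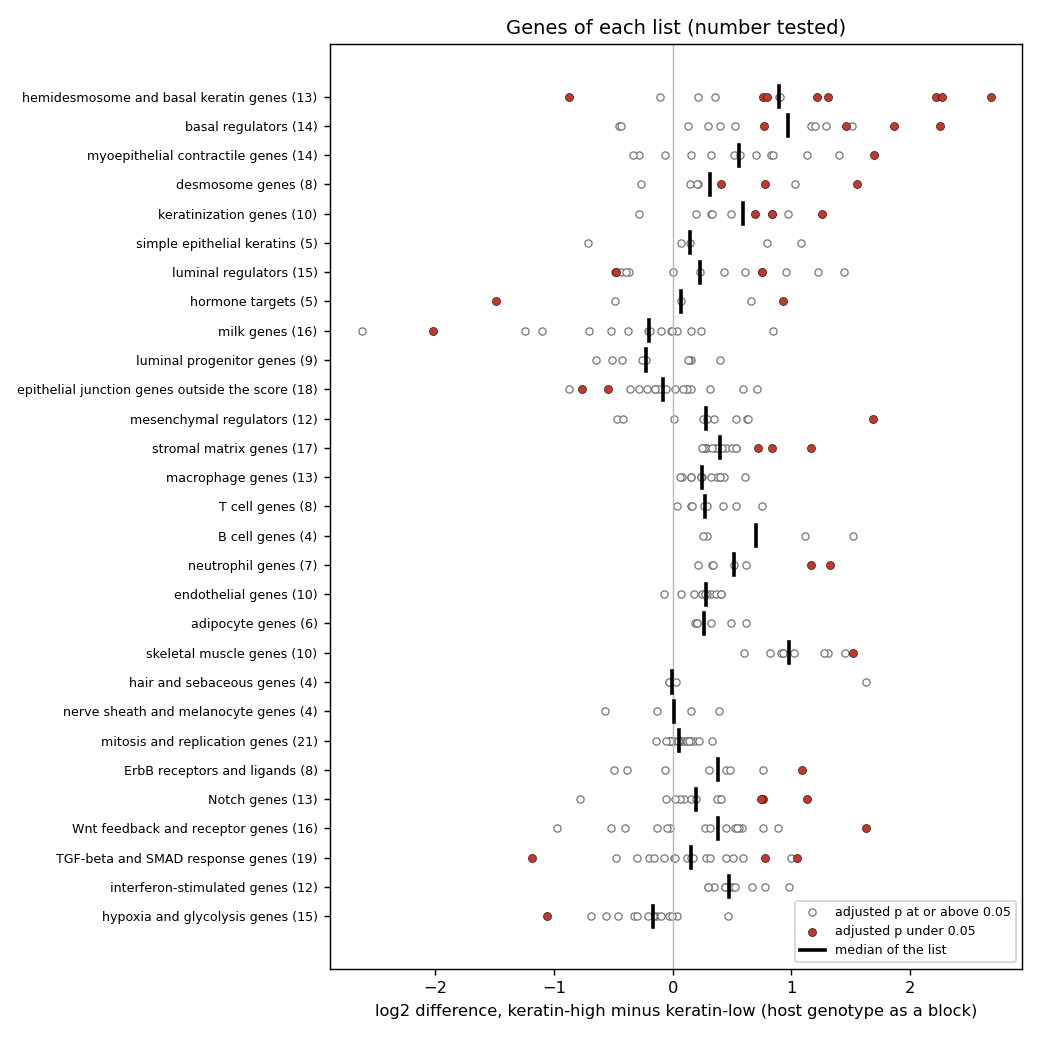
Log2 difference, keratin-high minus keratin-low, of each tested gene in the 29 lists; filled points passed an adjusted p of 0.05 and the bar is the list median. The hemidesmosome and basal regulator lists have medians of 0.90 and 0.97, the simple keratin list 0.15, and all genes tested 0.01.

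The genes with the lowest p outside the lists were led by Traf1, an adaptor of tumor necrosis factor receptors. Its values were 6.43, 7.14 and 8.60 in WT keratin-high and 5.47, 5.73 and 6.37 in WT keratin-low arrays, and 6.33, 6.90 and 7.58 against 5.01, 5.48 and 6.23 in Het arrays. It was the 1 gene of 12501 (0.008%) whose groups did not overlap in either host, compared with 21 genes (0.168%) in WT and 108 (0.864%) in Het arrays alone. Traf1 rose by 1.502 ± 0.20, or 2.83-fold (limma adjusted p = 0.00034), and a second probe set by 1.61. In the 14 middle arrays, which entered neither group, its median was 6.58 in WT and 6.36 in Het hosts, between the medians of both groups. In the 14 arrays left out for a low epithelial score the Traf1 medians were 7.44 (WT) and 7.65 (Het), above the keratin-high medians.

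Col7a1, the collagen of the fibrils that anchor basement membrane, was 8.70, 9.70 and 10.75 against 8.01, 8.84 and 9.18 in WT arrays and 9.43, 9.98 and 10.79 against 7.72, 8.64 and 8.92 in Het arrays. The Het groups did not overlap. It rose by 1.25 ± 0.19 (limma adjusted p = 0.000961). Pdpn, or podoplanin, a membrane mucin of basal and invading epithelium, was 9.30, 9.70 and 13.51 against 8.02, 8.42 and 9.07 in WT arrays and 8.91, 10.66 and 11.76 against 7.54, 8.44 and 9.27 in Het arrays. The WT groups did not overlap. Pdpn rose by 1.93 ± 0.34 (limma adjusted p = 0.00232), and by 1.59 without the pair of arrays that stood apart (limma adjusted p = 0.00231).

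The other 9 of the 12 higher genes of lowest p rose by 0.58 to 1.69. They were the microtubule linker Clip4, the semaphorin co-receptor Nrp2, the oxysterol-binding protein gene Osbpl3, the actin-oxidising enzyme Mical1, the death-associated kinase Dapk2, the orphan receptor Gprc5a, and Tspoap1, Tspyl3 and Bnip2. On the probe sets used, Tspyl3 had the largest difference of these (1.69 ± 0.27, limma adjusted p = 0.00125) and Bnip2 the smallest (0.58 ± 0.10, limma adjusted p = 0.00179). The other Clip4 probe sets rose by 0.87 to 2.83, and all 7 Clip4 probe sets passed over all probe sets.

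Among lower genes, Akap12, a scaffold of protein kinase A, was 6.95, 8.86 and 10.65 in WT keratin-high and 10.16, 11.11 and 13.07 in WT keratin-low arrays. In Het arrays the values were 7.39, 8.61 and 9.52 against 10.31, 10.90 and 11.16, with no overlap. Akap12 fell by 2.42 ± 0.36 on the log2 scale, a 5.34-fold difference (limma adjusted p = 0.000961). Bhlha15, the Mist1 factor of secretory cells, was 6.06, 7.06 and 8.68 against 7.12, 10.68 and 12.02 in WT arrays and 5.72, 6.71 and 8.20 against 8.49, 9.01 and 10.07 in Het arrays. The Het groups were separate, and 2 WT keratin-low arrays lay inside the keratin-high range. Bhlha15 fell by 2.54 ± 0.40, a 5.80-fold difference (limma adjusted p = 0.00143), and a dimmer probe set by 0.43.

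Abcg2, a transporter that moves compounds into milk, was 7.20, 7.97 and 10.11 against 9.32, 10.01 and 10.81 in WT arrays and 7.33, 8.02 and 8.70 against 8.42, 9.42 and 10.51 in Het arrays, and fell by 1.64 ± 0.29 (limma adjusted p = 0.00222). Lmo4, a LIM-domain cofactor of mammary epithelium, was 10.18, 10.97 and 11.27 against 11.28, 11.90 and 12.78 in WT arrays, with no overlap, and 10.18, 11.15 and 11.72 against 11.23, 11.87 and 12.25 in Het arrays. It fell by 1.08 ± 0.19 (limma adjusted p = 0.00222). The other 8 of the 12 lower genes of lowest p fell by 0.52 to 1.81: the cholinesterase Bche, the protocadherin Pcdh18, the ciliary gene Tmem216, the apoptosis repressor Nol3, Eid1, Odr4, the acyl-CoA-binding Dbi and the pseudouridine synthase Trub1. Each of these 24 genes of lowest p passed in all 28 leave-one-out fits. With no array dropped by the epithelial score, 13 of the 79 called genes followed by name kept their call, Abcg2 and Lama3 among them. Traf1 then differed by 0.84, Akap12 by -1.39 and Lmo4 by -0.15 (limma adjusted p = 0.294, 0.225 and 0.894).

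**Figure D4:**
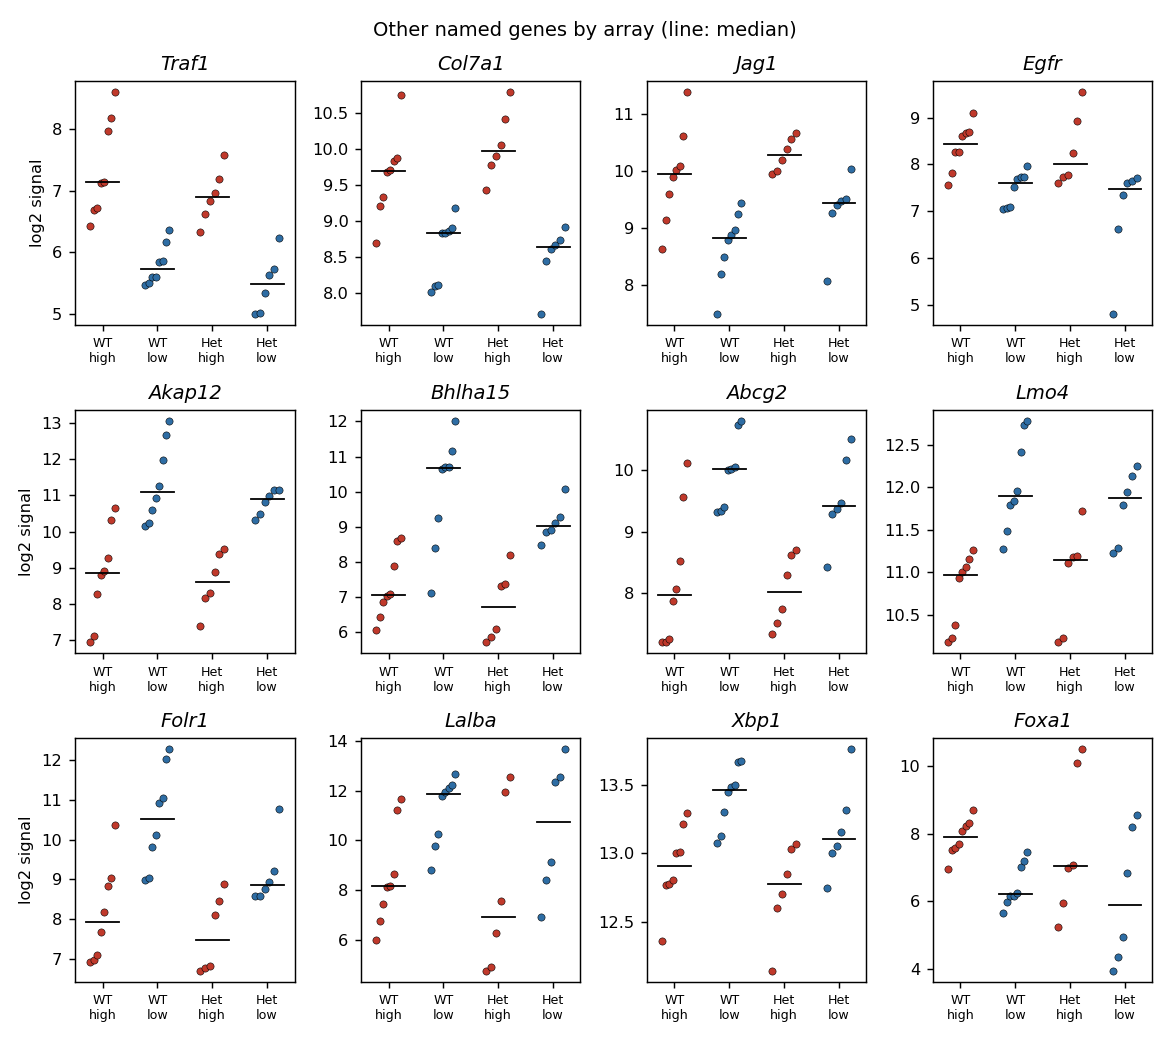
Log2 signal of 12 further genes in each of the 28 arrays, with a line at the group median. Traf1 groups are separate in both hosts, Akap12 and Bhlha15 groups are separate in Het hosts, and the Lalba groups overlap in both hosts. Foxa1 groups overlap widely in Het hosts, while in WT hosts 7 of 8 keratin-high values lie above 7.46, the highest keratin-low value.

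Over the ErbB, Notch, Wnt and TGF-beta lists, 8 of 56 genes were called (14.3%, against 7.65% of all genes tested). Of 8 ErbB receptors and ligands, Egfr, the receptor of epidermal growth factor, rose by 1.09 ± 0.26 (limma adjusted p = 0.012; list median 0.38). Its values were 7.55, 8.44 and 9.10 against 7.05, 7.61 and 7.98 in WT arrays and 7.60, 8.01 and 9.55 against 4.80, 7.48 and 7.70 in Het arrays. The low value of 4.80 was that of sham Het replicate 52, without which Egfr rose by 0.90 (limma adjusted p = 0.0077). Of 7 Egfr probe sets, the one of highest mean was used and none of the others passed over all probe sets. Erbb3 differed by -0.50 ± 0.16 (limma adjusted p = 0.0593).

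Of 13 Notch genes 3 rose and none fell, with a median of 0.19. The ligand Jag1 was 8.63, 9.96 and 11.39 against 7.50, 8.83 and 9.44 in WT arrays and 9.96, 10.29 and 10.67 against 8.06, 9.44 and 10.03 in Het arrays. It rose by 1.13 ± 0.23 (limma adjusted p = 0.00582). Lfng, which modifies Notch with sugars, rose by 0.75 ± 0.17, and the Notch feedback gene Nrarp by 0.76 ± 0.21 (limma adjusted p = 0.00881 and 0.0258). Second probe sets of Lfng and Nrarp differed by -0.12 and 0.25 and did not pass. Without the 4 arrays of Krt5 above 9, Nrarp differed by 0.38 (limma adjusted p = 0.188). Of 16 Wnt genes the ligand Wnt10a rose by 1.63 ± 0.45 (limma adjusted p = 0.029; list median 0.38), and Lef1 differed by -0.97 (limma adjusted p = 0.0598). The Wnt10a call was lost without irradiated Het replicate 56 (1.43, limma adjusted p = 0.0512), and the difference was 0.92 once the 4 arrays of Krt5 above 9 were left out (limma adjusted p = 0.0984).

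Of 19 TGF-beta genes 2 rose and 1 fell, with a median of 0.16. The ligand Tgfb2 was 7.15, 8.24 and 9.24 against 8.44, 9.60 and 10.21 in WT arrays and 6.30, 7.97 and 8.86 against 8.30, 8.62 and 10.24 in Het arrays. It fell by 1.18 ± 0.26 (limma adjusted p = 0.00866), and 3 other probe sets by 1.01 to 1.15. Itgb8, part of an integrin that activates latent TGF-beta, rose by 1.05 ± 0.24, and the response gene Ccn2 by 0.77 ± 0.15 (limma adjusted p = 0.00915 and 0.00365). Tgfb1, of which Het hosts carry 1 functional copy, differed by 0.12 ± 0.18 (limma adjusted p = 0.717). Of 21 mitosis and replication genes none passed (median 0.06), with Top2a at 0.33 (limma adjusted p = 0.202). None of 12 interferon-stimulated genes passed (median 0.47), with Gbp2 at 0.98 (limma adjusted p = 0.122), although all 12 differences were positive. Of 15 hypoxia genes Egln3, a HIF hydroxylase, fell by 1.05 ± 0.27 (limma adjusted p = 0.0181), with a list median of -0.16 and 13 negative differences.

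Markers of other cell types were compared in the same way. All 17 stromal matrix genes had positive differences (median 0.40), and 3 rose: Pdgfra by 1.16 ± 0.28, periostin Postn by 0.83 ± 0.21 and Col6a1 by 0.72 ± 0.18 (limma adjusted p = 0.0124, 0.0193 and 0.0196). The other Pdgfra probe sets differed by 0.35 and 0.42 and did not pass (limma adjusted p over all probe sets = 0.22 and 0.0702). The mean of the list ran from 9.97 to 11.09 and from 9.52 to 10.35 in keratin-high and keratin-low WT arrays, and from 9.70 to 11.07 and from 9.50 to 10.67 in Het arrays. With that mean as a covariate 576 genes were called, and of the 79 called genes followed by name 27 lost their call, Col17a1 (2.19, limma adjusted p = 0.0594), Snai2 (1.16, limma adjusted p = 0.192), Esrp2 (-0.47, limma adjusted p = 0.119) and Socs2 (-1.57, limma adjusted p = 0.0616) among them. Pdgfra and Col6a1, which are part of that mean, then differed by 0.59 and 0.33 (limma adjusted p = 0.18 and 0.262). Postn differed by 0.51 without the arrays of Krt5 above 9 (limma adjusted p = 0.14). Of 12 mesenchymal regulators S100a4 rose by 1.68 ± 0.39 (limma adjusted p = 0.0113; list median 0.28), and Vim differed by 0.27 (limma adjusted p = 0.114).

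All 10 skeletal muscle genes had positive differences (median 0.98), and Tnni2, a troponin of fast muscle, rose by 1.52 ± 0.47 (limma adjusted p = 0.0463), a call lost in 16 leave-one-out fits. The list mean ran from 4.93 to 9.19 in keratin-high and from 4.69 to 7.75 in keratin-low WT arrays, with medians of 5.13 and 4.98. In Het arrays it ran from 4.64 to 10.07 and from 4.60 to 7.01, with medians of 6.09 and 4.66. With that mean as a covariate 329 genes were called, and of the 79 called genes followed by name 51 kept their call, Traf1, Lama3, Col17a1, Akap12 and Bhlha15 among them. Among those that lost it was Snai2 (1.53, limma adjusted p = 0.0795).

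Of 7 neutrophil genes Mmp9 and Il1r2 rose, by 1.33 ± 0.36 and 1.17 ± 0.35 (limma adjusted p = 0.0242 and 0.0373; list median 0.52). The Il1r2 call was lost in 9 leave-one-out fits, and with the stromal mean as a covariate Mmp9 differed by 0.86 (limma adjusted p = 0.196). The list mean ran from 6.35 to 8.14 and from 6.26 to 7.05 in WT and from 6.38 to 10.37 and from 5.30 to 8.41 in Het arrays. No gene passed among 13 macrophage, 8 T cell, 4 B cell, 10 endothelial, 6 adipocyte, 4 hair and sebaceous and 4 nerve sheath and melanocyte genes, with medians of 0.24, 0.27, 0.70, 0.28, 0.26, -0.00 and 0.01. All neutrophil, macrophage, T cell, B cell and adipocyte genes had positive differences, as did 9 of 10 endothelial genes. The hair and the nerve sheath lists held 2 positive genes each. Over all 12501 genes tested, 6370 differences were positive. The B cell mean ran from 6.16 to 9.56 and from 5.44 to 6.65 in keratin-high and keratin-low WT arrays, and from 5.36 to 7.49 and from 5.28 to 7.29 in Het arrays. The macrophage mean ran from 10.02 to 10.61 and from 9.72 to 10.26 in WT and from 9.43 to 10.52 and from 8.99 to 10.64 in Het arrays. The part of these cells in the other results was not tested beyond the stromal and muscle fits.

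The last comparison asked whether host Tgfb1 genotype altered the keratin-high profile. The test of the difference between host genotypes called 0 genes with limma (0.0%), with 310 at an unadjusted p under 0.05, and likewise 0 in each alternative run. The genes of lowest p in each direction were Fdx1, with differences of -0.32 in WT and 0.30 in Het hosts, and Gas7, with 1.70 and -0.07. Within WT arrays alone limma called 0 genes (0.0%; 2293 at an unadjusted p under 0.05) and within Het arrays alone 5 (0.04%; 1334 unadjusted). All 956 called genes had the same sign in both hosts, which is no independent support, since the calls came from a fit over both. Larger differences in Het than in WT hosts were seen for Col17a1 (3.42 and 1.40) and Krt6a (2.94 and 1.67), and the reverse for Id4 (1.44 and 2.86); none of these passed the test of the difference.

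**Figure D5:**
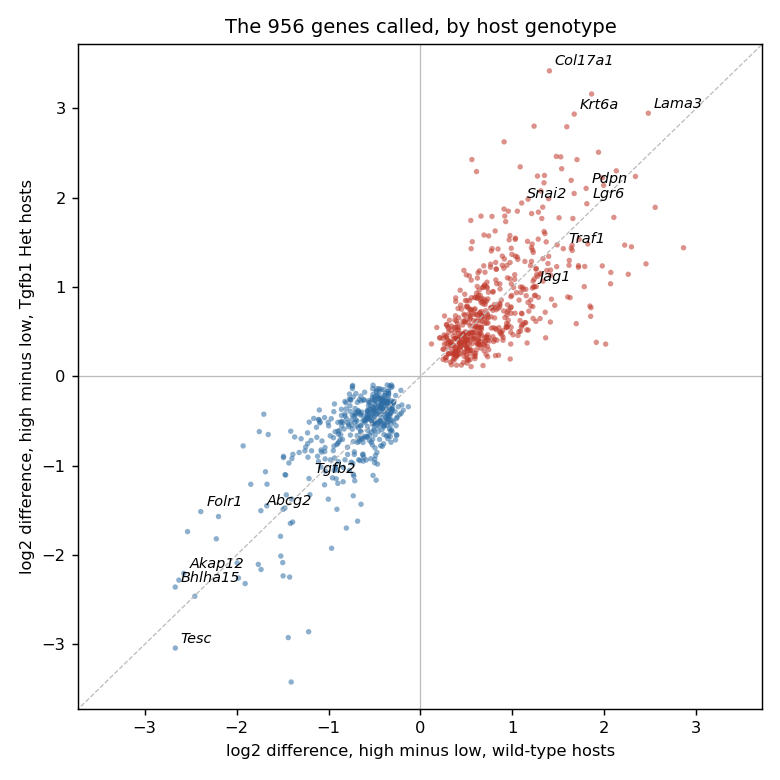
Log2 difference, keratin-high minus keratin-low, of the 956 called genes in WT hosts (horizontal) and Het hosts (vertical), with the line of equal difference dashed. Red genes were higher and blue genes lower in keratin-high tumors; Col17a1 lies above the line at 1.40 and 3.42, and Tesc lies at the lower left at -2.67 and -3.04.

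Arrays outside both groups give a description without a test. In the middle 8 WT arrays the median lay between the medians of the keratin-high and keratin-low groups for 464 of the 536 higher genes (86.6%) and 349 of the 420 lower genes (83.1%), against 45.4% of all genes tested. In the middle 6 Het arrays the shares were 71.5% and 69.5%, against 37.4%. Called genes were chosen for a gap between the groups, which by itself raises these shares. The shares are therefore no independent support for the calls. The arrays left out for a low epithelial score had median keratin scores of 6.77 (WT) and 7.14 (Het). Their Snai2 medians of 10.19 and 9.43 lay above those of the keratin-high arrays. Their Lama3 medians of 5.85 and 8.03 lay below those of the keratin-high arrays. The epithelial score had left out sham Het replicate 19, the array of highest keratin score in the series (12.34). Its signals were 13.00 for Krt5, 13.38 for Krt14, 10.64 for Krt17, 11.16 for Col17a1, 13.13 for Krt6a and 11.61 for Snai2, with 10.50 for Cdh1 and 8.69 for Cldn3. Irradiated WT replicate 16, also left out, had a keratin score of 10.66, with 11.52 for Col17a1, 12.32 for Snai2 and 10.90 for Trp63, above every WT keratin-high array in all 3 genes. Other genes of this array did not follow: Lama3 at 7.95 and Krt16 at 4.63 lay below the WT keratin-high medians, Egfr at 6.85 below every WT keratin-high array, and Lmo4 at 12.48 above every one.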

How the data were processed

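RNA of 56 mouse mammary tumors was labelled (100 ng per array) and hybridised to Affymetrix 3' arrays, per the labels' protocols. Probe set signals were deposited on the log2 scale after RMA by the authors, per the submitters' processing notes (version not given in the sources used). Array medians were 5.92 to 6.00 for WT and 5.57 to 5.71 for Het hosts, so host genotypes were treated as normalized separately and entered as a block. The labels name separate tumors without saying which came from 1 host mouse; p-values reflect only the spread among them. The number of arrays limits the precision.

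Only the 34958 of 45101 probe sets paired with 1 symbol by the platform annotation were used (932 paired with several, 9211 are unnamed here), with names brought up to date by GRCm38.p6 identifiers (12467 of 12508 genes matched). A probe set was kept if its signal exceeded the overall median of 5.83 on 6 or more arrays. A gene was its kept probe set of highest mean, and the 7 score genes were then left out. limma 3.58.1 in R 4.3.3 (lmFit, eBayes, two-sided, Benjamini-Hochberg over all genes, threshold 0.05) gave all adjusted p, and was tested on simulated data made from the residuals. Exact tests used scipy 1.17.1 in Python 3.11.15, and plots matplotlib 3.10.9.

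Named were the 12 called genes of lowest p per direction, list members of lowest p or needed to account for a list, the gene of lowest p per direction for the host difference, and Tgfb1 and Esr1. The members, the 29 gene lists and the tests were chosen with earlier results of these data known. Lists were counted, with no set test. Alternatives were other filters, probe sets, normalization, priors, weights, covariates, group sizes and rankings, no drop by epithelial score, each host alone and each array left out. Further ones were added after the data were seen: leaving out low 18S arrays, top keratin arrays, arrays with Krt5 above 9 or the pair that stood apart, and stromal or muscle means as covariates. The transcript of the deleted tumor suppressor was not reported.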

Additional observations from a re-analysis of the deposited data

Results flagged for a closer look

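Within a group of 6 or 8 arrays, an array far from the rest was found in 14 of 128 sets of values examined. Chance alone marks about 1 in 20 independent sets. These sets share arrays and include the keratins that made the ranking, so no excess over chance can be read from the count. Irradiated WT replicate 12 accounted for 5 of them among keratin-high WT arrays: its keratin score was 12.32 (nearest 9.63), Krt5 12.07 (8.19), Col17a1 10.07 (5.51), Snai2 11.68 (8.26) and Pdpn 13.51 (10.87).

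Sham Het replicate 52 accounted for 4 among keratin-low Het arrays: its keratin score was 4.83 (nearest 6.41), Krt14 4.46 (7.61) and Egfr 4.80 (6.62), all low, and Id4 12.50 (9.58), which was high. The remaining 5 were single values. Irradiated Het replicate 56 had a Lama3 signal of 12.09 (nearest 9.56) among keratin-high arrays. Among keratin-low arrays, irradiated Het replicate 6 had a Krt16 signal of 4.74 (4.38) and irradiated Het replicate 26 a Folr1 signal of 10.76 (9.20). The 18S control of sham WT replicate 64 was 9.28 (12.36), and the 3' minus 5' difference of sham Het replicate 38 was 0.54 (0.28).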

How the results depend on the processing

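Limits first. The groups were made from measured keratins, and the main count rests on 28 arrays. Neither host genotype alone carried the calls: 0 genes were called in WT arrays and 5 in Het arrays. No array's signal over background was analysed here. Against 956 called genes, the count was 630 with all 42 arrays split at the middle, 256 with narrower groups, 475 when ranked without Krt17 and 51 with no drop by the epithelial score. Among alternatives chosen after seeing the data it was 491 without the arrays of low 18S, 424 without the keratin-high arrays with Krt5 above 9, and 576 and 329 with the stromal and skeletal muscle means as covariates. Leaving out 1 array gave 621 to 1096. The causes were not tested; narrower groups and each host alone hold fewer arrays. The other 12 planned settings and 2 added ones stayed within 1.5 times, from 638 to 1285. With no drop by the epithelial score, 5 called genes turned sign and none of them passed: Bnip2 -0.019, Procr -0.20, Marveld3 1.07, Esrp2 1.03 and Col6a1 -0.19. No other called gene followed by name turned sign in any setting. The test between host genotypes called 0 genes in every setting run, and irradiated host, 18S and 3' minus 5' comparisons did not pass in any. No paired analysis was possible because the replicate numbers of the titles do not recur across groups.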

Other observations

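Further called genes outside the lists were chosen after their values were seen. Higher in keratin-high tumors were Rspo1, a Wnt-enhancing R-spondin (2.30 ± 0.63 on the log2 scale, SE), the basal keratinocyte factor Bnc1 (2.11 ± 0.59), the surface protein gene Ly6d (1.87 ± 0.54), the annexin Anxa8 (1.91 ± 0.41) and Trim29 (1.65 ± 0.49), with limma adjusted p = 0.0269, 0.0304, 0.032, 0.00706 and 0.0391. All 14 keratin-high arrays lay above the keratin-low median for Anxa8, and 10 of 14 did for Rspo1. The matrix metalloproteinases Mmp3, Mmp10 and Mmp13, which lie on chromosome 9, rose by 1.37, 1.47 and 1.83 (limma adjusted p = 0.0309, 0.0139 and 0.0286). Calls were lost in leave-one-out fits for Bnc1 and Ly6d (3 each), Trim29 (9), Mmp13 (2) and Mmp3 (1). Without the keratin-high arrays with Krt5 above 9, Trim29 and Ly6d differed by 0.61 and 1.17, and with the stromal mean as a covariate Mmp3 and Mmp13 by 0.72 and 1.18 (limma adjusted p = 0.213, 0.193, 0.303 and 0.223).

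Lower were Tesc, a calcium-binding protein gene (-2.83 ± 0.66), the synaptic scaffold Homer2 (-2.48 ± 0.59), Duox1, an oxidase that makes hydrogen peroxide (-2.19 ± 0.50), its maturation factor Duoxa1 (-1.93 ± 0.50) and the secreted carbonic anhydrase Car6 (-2.46 ± 0.76), with limma adjusted p = 0.0116, 0.013, 0.0105, 0.0213 and 0.0464. All 14 keratin-high arrays lay below the keratin-low median for Tesc and Homer2, and 13 for Duox1 and Duoxa1. The Car6 call was lost in 20 leave-one-out fits.

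Called genes were spread unevenly over chromosomes, as a description. Chromosome 4 had 87 of 773 tested genes called (11.3%), 76 of them higher, and chromosome 8 had 66 of 670 (9.85%), 50 of them lower. On chromosome 14, 28 of 29 called genes were higher, and on chromosome 17, 35 of 37. Over all chromosomes 7.65% were called, 536 higher and 420 lower.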
